A study of Bos taurus with 30 samples.

Results

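Lymphocytes of prednisolone-treated cattle were compared between both samplings of the same animals, T2 against T1. The comparison took every array labelled with prednisolone treatment, 8 at T2 and 8 at T1, and paired them by the animal number in the sample titles (animals 25 to 32). These 16 arrays are part of 30, the other 14 being 7 control animals at T2 and at T1, which served as the background. Treated animals received prednisolone, a synthetic glucocorticoid, by mouth at 30 mg per animal each day over 35 days. The treatment label marks the other animals as control, but the dosing text stands on every sample, so that controls were taken as undosed from that mark alone. The labels place neither T1 nor T2 on the dosing calendar and name the slaughterhouse as the place where the cells were collected. No label gives an animal's age or breed. Total RNA of 1 animal, labelled with Cyanine 3, was hybridised to each bovine oligonucleotide array, with no pooling.

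Glucocorticoids cross the cell membrane and bind the glucocorticoid receptor (encoded by NR3C1), which moves to the nucleus, switches on genes such as ANXA1 and ZBTB16 and holds back genes driven by the inflammatory factors NF-kB and AP-1. In blood, they are known to lower the output of inflammatory cytokines, chemokines and prostaglandins and to change how lymphocytes and monocytes move between blood and tissue. AP-1 is itself built from FOS and JUN proteins, whose genes are switched on within minutes of a stimulus and are called immediate early genes.

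Values are log2 intensities, so a difference of 1 is 2-fold, and differences are T2 minus T1 with limma's standard error (SE). Genes passed where the adjusted p (limma, animal as a block, Benjamini-Hochberg over all 2370 genes tested) was under 0.05. A prednisolone array gave a value for 34681 to 38801 of 44407 features, and the number of arrays limits the precision. RNA of the pan-T cell genes CD3E and CD2 and of the B cell gene CD79A was present at both times: CD3E averaged 14.73 ± 0.22 at T2 and 14.64 ± 0.18 at T1 (SD, n = 8), and CD79A averaged 13.95 ± 0.38 at T2 and 14.02 ± 0.48 at T1. CD5, CD79B and MS4A1 are not analysed here. RNA known from other cells was also plentiful, since the neutrophil and monocyte gene S100A12 averaged 17.13 ± 0.30 at T2 and 17.23 ± 0.35 at T1. In bulk RNA, fewer cells of a type and less RNA per cell cannot be told apart.

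Animals 28 and 32 stood apart at T1. Their T1 arrays lay 0.287 and 0.341 log2 units from the mean of all 14 control arrays (median over genes), the farthest of the 8, with animal 29 next at 0.259, while at T2 all 8 arrays lay between 0.201 and 0.272 from it. Their own changes were the largest as well, with a median size of 0.387 in animal 28 and 0.447 in animal 32, against 0.244 as the lowest of the 8. Without these animals 716 genes passed, 685 of them among the 1027 that passed with them. This setting also had fewer animals, and no other pair was left out. A call that ended this way could keep its size, as for the gene FDFT1 (0.39 with both animals, 0.40 without). An ended call alone therefore does not tie a change to animals 28 and 32. Lists whose counts changed without them are given both ways, by their counts or by the gene whose call ended.

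**Figure D1:**
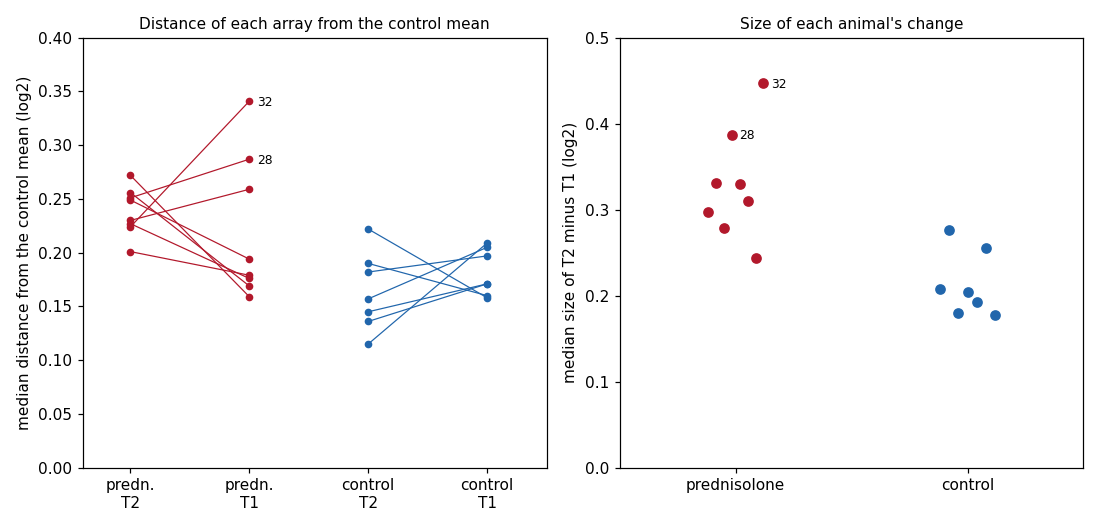
Left, the median distance (log2 units, over genes) of each array from the mean of all 14 control arrays, with lines joining an animal's T2 and T1 arrays. Right, the median size of each animal's T2 minus T1 difference (log2 units), with prednisolone animals in red and control animals in blue. Animals 28 and 32 lie farthest from the control mean at T1 (0.287 and 0.341) and have the largest changes (0.387 and 0.447), and all 8 treated arrays at T2 lie between 0.201 and 0.272.

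Between T1 and T2, 1027 of 2370 genes changed in the treated animals, which is 43.3%: 608 rose (25.7%) and 419 fell (17.7%). In control animals 5 of 2370 genes passed (0.211%), all higher at T2. The median size of a difference over all genes was 0.278 in treated animals and 0.121 in controls. Most treated changes were modest, and 52 genes rose and 51 fell by more than 2-fold, 4.35% of the genes tested. Of 989 passing genes with values at both times in all 8 animals, 612 moved the same way in all 8 and 330 in 7. The paired test itself favours genes whose animals agree, so these counts are not separate evidence of a shared direction. For 223 genes (9.41%) the T2 and T1 values that were measured did not overlap, 135 of them higher and 88 lower at T2. Some of these, such as CCL2, SPP1 and IL15, lacked a value in 1 or more animals. The median SD between animals was 0.212 at T2 and 0.263 at T1 in treated cattle (0.203 and 0.232 without animals 28 and 32), and 0.246 at T2 and 0.267 at T1 in controls.

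Among genes with a value on all 16 arrays, a level above the lower quartile and a symbol other than a LOC number, the largest rises included the transcription factors NFE2, EGR1 and FOS and an enzyme and a receptor of histamine. NFE2, a transcription factor of erythroid and megakaryocyte genes, ranged from 12.56 to 13.70 at T2 with a median of 13.47, against 9.91 to 12.26 at T1 with a median of 11.11. Every T2 value lay above every T1 value, and the difference was 2.32 (SE 0.263, adjusted p 2.01e-04), a 5.00-fold rise. EGR1, an immediate early zinc-finger factor, spanned 13.09 to 14.43 at T2 with a median of 13.86, against 11.01 to 11.97 at T1 with a median of 11.76. Its times did not overlap either, and it rose by 2.26 (SE 0.183, adjusted p 7.87e-05). HNMT, the enzyme that inactivates histamine by methylation, rose by 1.73 (SE 0.160, adjusted p 1.12e-04) in 8 of 8 animals. HRH1, the histamine H1 receptor, rose by 1.48 (SE 0.396, adjusted p 0.0138) with 6 of 8 animals higher. Without animals 28 and 32 its difference was 1.42, with an adjusted p of 0.0574.

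UBE2D1, a ubiquitin-conjugating enzyme, had the smallest SE among the 12 largest rises. It lay between 8.35 and 8.82 at T2 with a median of 8.61, against 6.80 to 7.61 at T1 with a median of 7.18, so the times were far apart, and the rise was 1.39 (SE 0.092, adjusted p 5.03e-05). GNA11, a G protein alpha subunit, rose by 1.64 (SE 0.333), and SUMF2, a sulfatase-modifying factor homologue, by 1.43 (SE 0.136). TRAF3IP3, which binds the signalling adaptor TRAF3, rose by 1.35 (SE 0.147), RNASE6, an antimicrobial ribonuclease, by 1.29 (SE 0.181), and PPT2, a lysosomal thioesterase, by 1.28 (SE 0.182). HSPB8, a small heat shock protein, ranged from 8.03 to 10.90 at T2 with a median of 9.26, against 4.51 to 12 at T1 with a median of 7.27. The times overlapped, and animal 30, with the highest T1 value, was the only animal lower at T2. The gene's rise of 1.80 (SE 0.475, adjusted p 0.0130) was larger without animal 30, at 2.32, and did not pass without animals 28 and 32 (1.5, adjusted p 0.0707).

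Within the same limits, the largest falls included a chemokine, a matricellular protein and a monocyte receptor. CXCL5, a chemokine that attracts neutrophils, ranged from 6.59 to 10.69 at T2 with a median of 7.73, against 10.21 to 15.27 at T1 with a median of 11.71. All 8 animals were lower at T2, although the ranges met, and the difference was -3.62 (SE 0.420, adjusted p 2.19e-04), a 12.3-fold fall. THBS1, thrombospondin, a secreted protein of platelets and monocytes, lay between 10.00 and 12.69 at T2 with a median of 11.17, against 12.09 to 15.75 at T1 with a median of 13.71. It too was lower in 8 of 8 animals, by -2.63 (SE 0.198, adjusted p 6.44e-05). CD14, the lipopolysaccharide co-receptor of monocytes, lay between 10.98 and 12.91 at T2 with a median of 11.41, against 13.33 to 15.61 at T1 with a median of 13.74. The times did not overlap, and CD14 fell by 2.33 (SE 0.282, adjusted p 2.49e-04), or 5.04-fold.

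PLAUR, the urokinase receptor, changed by -1.68 (SE 0.198) and SERPINB2, an inhibitor of urokinase, by -1.89 (SE 0.543, adjusted p 0.0185, 7 of 8 animals). KIT, the stem cell factor receptor, fell by 1.71 (SE 0.243), CA4, a membrane carbonic anhydrase, by 1.85 (SE 0.263) and FBP1, an enzyme of gluconeogenesis, by 1.69 (SE 0.307), each in 8 of 8 animals. BASP1, a membrane-bound signalling protein, changed by -1.66 (SE 0.187) and RASGEF1A, an exchange factor of Ras, by -1.58 (SE 0.144), and in both the T2 values lay wholly below the T1 values. Of the 24 genes with the largest changes within these limits, CCL8, PTGS2, HRH1 and HSPB8 were the ones whose call ended without animals 28 and 32.

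**Figure D2:**
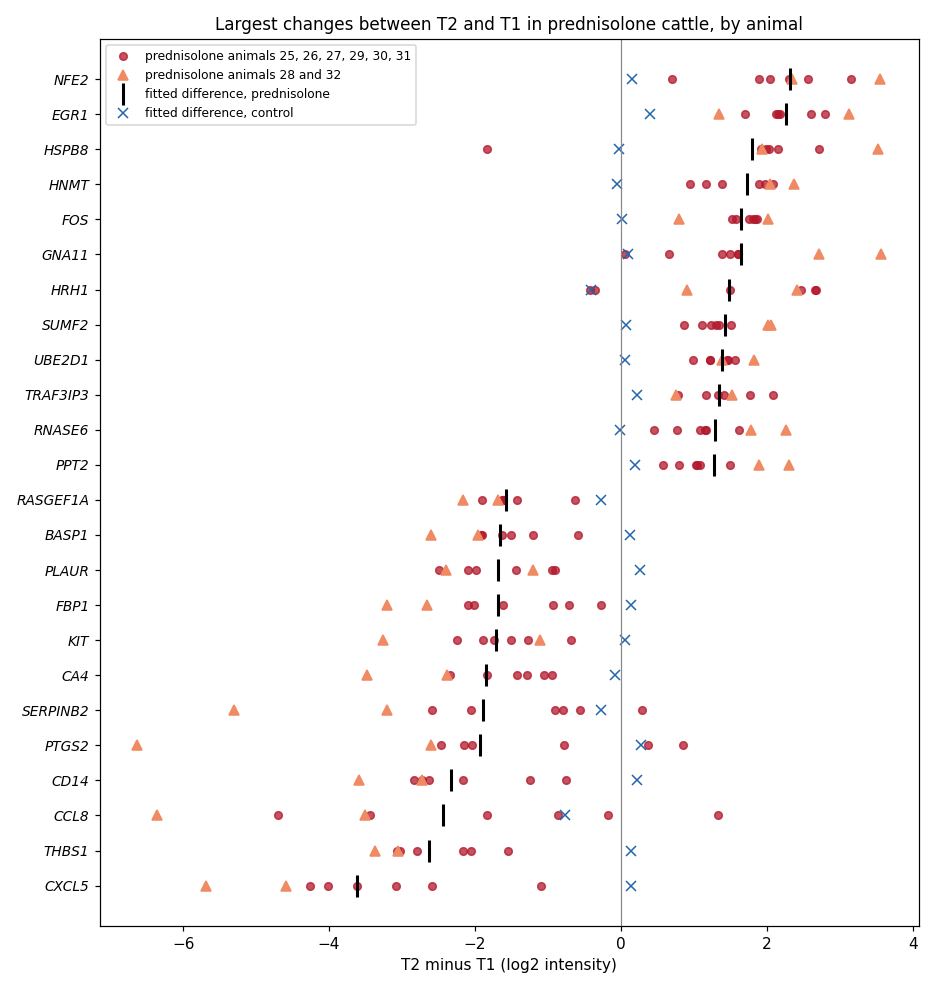
T2 minus T1 difference (log2 intensity) of each prednisolone animal for the 12 largest rises and the 12 largest falls that passed, among genes with all values, a level above the lower quartile and a symbol other than a LOC number, with the fitted difference as a black bar and the fitted control difference as a blue cross. Animals 28 and 32 are drawn as triangles. HSPB8 in animal 30 (-1.83) and PTGS2 in animal 28 (-6.63) lie far from the other animals, and most control crosses lie near 0.

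All 4 immediate early genes that were tested rose, against 25.7% of all genes. Their median difference was 1.25, where the median of all genes was 0.04. FOS, a subunit of AP-1, ranged from 13.26 to 14.35 at T2 with a median of 14.02, against 11.45 to 13.56 at T1 with a median of 12.21. All but 1 of the T1 values lay below every T2 value, and FOS rose by 1.65 (SE 0.126, adjusted p 6.44e-05) in 8 of 8 animals. JUN, its partner in AP-1, rose by 0.86 (SE 0.083, adjusted p 1.12e-04), with T2 values of 13.34 to 13.63 wholly above T1 values of 12.32 to 12.87. ZFP36, which binds inflammatory mRNAs and speeds their decay, was higher in 6 of 8 animals, by 0.48 (SE 0.166, adjusted p 0.0418). Its call ended without any 1 of animals 25, 26, 27, 28, 30 and 31 (adjusted p up to 0.0997, without animal 31) and with the values as deposited (adjusted p 0.0591). The mean of the 4 genes was higher at T2 in all 8 animals, 13.19 to 13.94 at T2 and 11.79 to 12.55 at T1, and without animals 28 and 32 all 4 still passed.

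**Figure D3:**
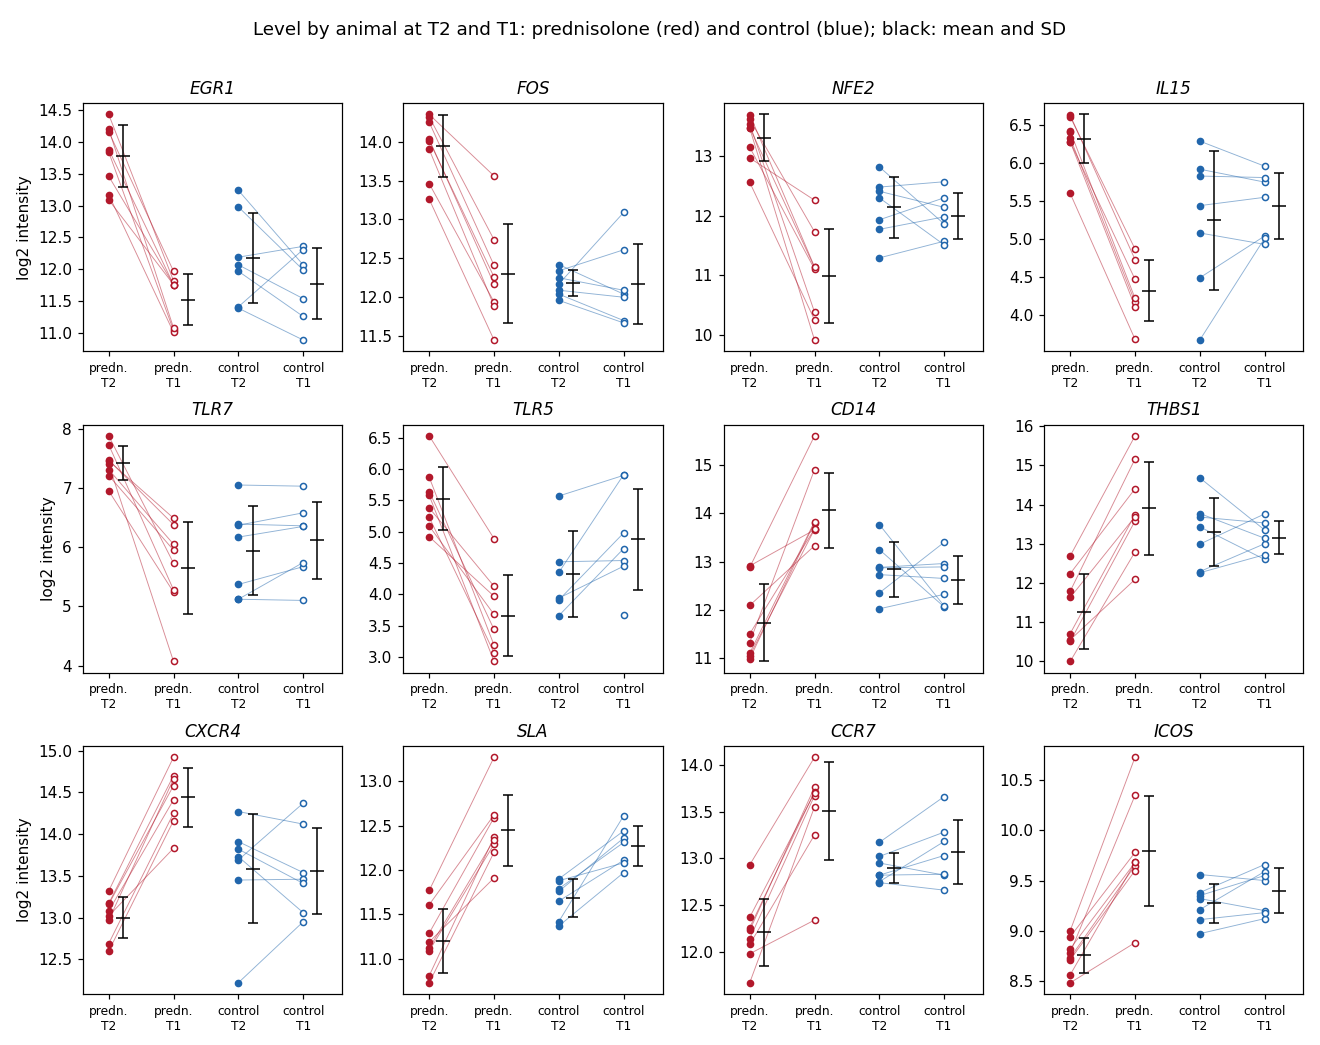
Level (log2 intensity) of 12 genes in each animal, with filled circles at T2 and open circles at T1, lines joining an animal's arrays, prednisolone in red, control in blue, and the mean and SD in black beside each group. In prednisolone cattle the T2 and T1 values do not overlap for EGR1, NFE2, IL15, TLR7, TLR5, CD14, CXCR4 and SLA, while in control cattle the times overlap in each gene drawn except SLA.

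Among genes known to be induced by glucocorticoids, most that were tested were lower at T2. Of 10 tested, 1 rose and 7 fell, with a median of -0.61, and without animals 28 and 32 the counts were 0 and 5. The share that changed was 80%, against 43.3% of all genes. CXCR4, the receptor of CXCL12, which retains leukocytes in bone marrow, ranged from 12.60 to 13.32 at T2 with a median of 13.05, against 13.83 to 14.92 at T1 with a median of 14.50. There was no overlap, and CXCR4 fell by 1.44 (SE 0.099, adjusted p 5.03e-05). SLA, an adaptor that restrains signalling by the T cell receptor, showed the same separation, with 10.73 to 11.77 at T2 against 11.91 to 13.27 at T1 and a difference of -1.25 (SE 0.099, adjusted p 7.37e-05). In control cattle SLA also separated by time, at 11.37 to 11.90 at T2 against 11.97 to 12.61 at T1, with a smaller difference of -0.59 (SE 0.11, adjusted p 0.0767) and an interaction of -0.66 (SE 0.149, adjusted p 0.0053). BTG1, an antiproliferative gene, changed by -0.66 (SE 0.123, adjusted p 0.0024) in 7 of 8 animals, and ZBTB16, a transcription factor that responds to the receptor, by -0.66 (SE 0.092, adjusted p 5.65e-04) in 8 of 8.

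MT2A, a metallothionein, was lower by -1.49 (SE 0.512, adjusted p 0.0396), a call that ended without any 1 of animals 27, 28, 30, 31 and 32 (adjusted p up to 0.0915, without animal 27). The gene that rose was ANXA1, annexin A1, a glucocorticoid-regulated inhibitor of inflammation, by 0.63 (SE 0.148, adjusted p 0.0075) in 7 of 8 animals. Its adjusted p was 0.0503 without animals 28 and 32 and 0.1466 without pairing. NFKBIA, the inhibitor of NF-kB, averaged 15.75 ± 0.13 at T2 and 15.60 ± 0.30 at T1 and did not pass (0.14, adjusted p 0.1673). The receptor gene NR3C1 averaged 12.15 ± 0.23 at T2 and 12.12 ± 0.21 at T1, with a difference of 0.03 (SE 0.102, adjusted p 0.8111). Of the 6 tested genes of the receptor and its chaperones, DNAJB1 alone passed (16.7%, against 43.3% of all genes), lower by -0.79 (adjusted p 0.0365). DNAJB1 missed without any 1 of animals 26, 28, 29 and 32 (adjusted p up to 0.0735, without animal 32). It also missed with both animals 28 and 32 left out (-0.78, adjusted p 0.1146). Its difference was -0.52 without animal 30. TSC22D3, FKBP5, DUSP1 and PER1 are not analysed here.

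Inflammatory genes that glucocorticoids are known to repress were mostly lower at T2, though 10 of 21 tested did not pass. Of the 21, 2 rose and 9 fell, or 52.4% changed, against 43.3% of all genes. Their median was -0.64 in treated animals and -0.33 in controls, and without animals 28 and 32 the counts were 1 and 5. TNF, a cytokine of macrophages and T cells, ranged from 11.32 to 12 at T2 with a median of 11.56, against 11.46 to 14.87 at T1 with a median of 12.95. The T2 values sat in a narrow band around the low end of the T1 range, and TNF changed by -1.51 (SE 0.331, adjusted p 0.0054) in 8 of 8 animals. In controls the difference was -1.17 (adjusted p 0.2350), and the treated change was not told apart from it (-0.34, SE 0.589, adjusted p 0.7071). IL1B and IL1A, the interleukin 1 genes, changed by -1.53 and -1.38 in 6 of 8 animals each, and IL1RN, which blocks their receptor, by -1.41 in 8 of 8, these 3 being named after their values were seen. Without animals 28 and 32, IL1B and IL1A had adjusted p of 0.0852 and 0.0819.

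Chemokine ligands, the secreted proteins that draw leukocytes, gave 0 rises and 5 falls among 9 tested. The share that changed was 55.6%, against 43.3% of all genes, and the median was -0.56 in treated animals and -0.50 in controls. CCL2, which attracts monocytes, had a value at T2 in 5 animals, 3.01 to 7.40, and at T1 in all 8, 7.97 to 14.70. The fit therefore used 5 animals, each lower at T2 and with no overlap, and gave -7.31 (SE 1.069, adjusted p 0.0022). Its size is uncertain, since animals 28 (-11.22) and 32 (-9.69) had the largest falls. The difference was -5.22 without them, over animals 27, 29 and 31, and -6.80 where intensities under 16 were raised to 16. CCL3, which attracts macrophages, changed by -1.56 (SE 0.366, adjusted p 0.0076), and CCL8 by -2.44 (SE 0.762, adjusted p 0.0266) in 7 of 8 animals. CCL8 did not pass without any 1 of animals 27, 28, 30 and 32 (adjusted p up to 0.0657, without animal 27). GRO1, a neutrophil chemokine, was 13.94 ± 0.53 at T2 and 13.47 ± 1.25 at T1 in treated animals and did not pass (0.47, adjusted p 0.1637). Without animals 28 and 32 it passed (0.82, adjusted p 0.0196). Without animals 28 and 32 the ligands gave 1 rise and 3 falls. Members of chemokine, killer receptor, MHC and cathelicidin families are alike in sequence, and their probes may share signal.

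Cytokine and growth factor genes went both ways, with 5 rises and 8 falls among 18 tested (4 and 5 without animals 28 and 32). The share that changed was 72.2%, against 43.3% of all genes. IL15, which sustains natural killer and memory T cells, had the smallest p of the named genes. It ranged from 5.60 to 6.63 at T2 with a median of 6.37, against 3.68 to 4.87 at T1 with a median of 4.22 (7 animals with a T1 value). T2 lay above T1 without overlap, and IL15 rose by 1.99 (SE 0.083, adjusted p 7.68e-06) in 7 of 7 animals. IL18, an activator of interferon gamma production, rose by 0.57 (SE 0.094, adjusted p 0.0013). IFNG itself, interferon gamma, ranged from 6.01 to 8.38 at T2 against 6 to 7.74 at T1, overlapped widely, and rose by 0.59 (SE 0.164, adjusted p 0.0159) within 7 of 8 animals, with an adjusted p of 0.0890 without animals 28 and 32 and 0.1446 without pairing. IL2, the T cell growth factor, was 3.99 ± 0.29 at T2 and 4.65 ± 0.76 at T1 and did not pass (-0.66, adjusted p 0.0697). It passed without animals 28 and 32 (-0.95, adjusted p 0.0254) and where intensities under 16 were raised to 16 (-0.62, adjusted p 0.0254). CSF1, a monocyte growth factor, and IL4, a cytokine of helper T cells, fell by 0.74 (SE 0.136) and 0.64 (SE 0.122), each in 8 of 8 animals.

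Pattern recognition genes split by receptor. Of 16 tested, 8 rose and 4 fell (4 and 4 without animals 28 and 32, 5 and 4 with the values as deposited). The share that changed was 75%, against 43.3% of all genes. TLR5, the flagellin receptor, lay between 4.92 and 6.53 at T2 with a median of 5.48, against 2.93 to 4.89 at T1 with a median of 3.56. Its values were dim but did not overlap, and it rose by 1.87 (SE 0.203, adjusted p 1.79e-04). The size depended on the floor, and the rise was 1.40 where intensities under 16 were raised to 16. TLR7, an endosomal receptor of single-stranded RNA, ranged from 6.95 to 7.88 at T2 with a median of 7.43, against 4.07 to 6.49 at T1 with a median of 5.84. It rose by 1.78 (SE 0.25, adjusted p 5.78e-04), again without overlap.

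The other rises were smaller, with MYD88, the adaptor shared by most Toll-like receptors, at 0.46, the double-stranded RNA receptor TLR3 at 0.70, and NOD2, TLR6, TLR8 and TRAF6 between 0.19 and 1.01. The calls of TLR6, TLR8 and TRAF6 each ended without 1 of several animals (adjusted p up to 0.1166 and 0.0970 without animal 25 for TLR6 and TLR8, and 0.1137 without animal 28 for TRAF6). Beside CD14, the falls were in TIRAP, the adaptor that brings MYD88 to TLR2 and TLR4, by -0.87 (SE 0.141, adjusted p 0.0012), in TLR2, the lipoprotein receptor, by -0.61, and in TICAM1, the adaptor of TLR3 and TLR4, by -0.58. The NF-kB list gave 1 rise and 2 falls among 6, or 50% changed, against 43.3% of all genes (1 and 1 without animals 28 and 32). IKBKG, the regulatory subunit of the IkB kinase, rose by 0.59 (SE 0.075, adjusted p 3.01e-04), with T2 values of 10.73 to 11.06 wholly above T1 values of 10.11 to 10.45. TNIP1, an inhibitor of NF-kB signalling, changed by -0.59 (SE 0.158, adjusted p 0.0136), and CHUK, a catalytic subunit of the kinase, by -0.26 (adjusted p 0.0191, and 0.0504 without animal 28).

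Monocyte markers did not move as a block. Of 8 tested, 3 rose and 2 fell, with a median of 0.14, and 62.5% changed, against 43.3% of all genes. The mean of the 7 with a value on all arrays spanned 11.85 to 12.66 at T2 and 11.90 to 13.28 at T1, and none of the tested markers was at or near the floor. That mean differed by -0.38 on average. It was higher at T2 in animals 25 and 26 (0.34 and 0.69) and lower in the others (-0.98 to -0.41). CD86, a co-stimulatory ligand of antigen-presenting cells, fell with CD14, by 1.46 (SE 0.205, adjusted p 5.67e-04), and its T2 values of 9.44 to 10.13 lay wholly below its T1 values of 10.27 to 11.98. FCGR2B, an inhibitory IgG receptor, rose by 0.66 (SE 0.159, adjusted p 0.0088), SIRPA, the receptor of CD47, by 0.62 (SE 0.157, adjusted p 0.0107), and ITGAM, an integrin of myeloid cells, by 0.41 over 6 animals. AIF1, FCGR3A and TYROBP did not pass. The part of monocyte number in the falls of CD14, CD86, THBS1 and the cytokines was not tested.

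Secreted matrix and remodelling genes held 0 rises and 7 falls among 16 tested (0 and 6 without animals 28 and 32). The 43.8% that changed was close to the 43.3% of all genes, but all were falls, where 17.7% of all genes fell. Their median was -0.56 in treated animals and 0.13 in controls. SPP1, osteopontin, an adhesive cytokine, had T2 values in 6 animals, 1.33 to 2.37, at or near the floor of the data (1.328), against 5.12 to 12.65 at T1 in 8 animals. There was no overlap, and the fit over 6 animals gave -7.39 (SE 0.738, adjusted p 2.49e-04). Since T2 was at the floor, the size is uncertain, and it was -5.12 where every intensity under 16 was raised to 16. TIMP2, an inhibitor of matrix metalloproteinases, fell by 0.77 (SE 0.126, adjusted p 0.0012) in 8 of 8 animals, and FN1, fibronectin, by 0.97 (adjusted p 0.0026). TNFAIP6, a hyaluronan-binding protein induced by inflammation, was 3.52 ± 0.89 at T2 and 4.89 ± 1.16 at T1 and did not pass (-1.38, adjusted p 0.0587), with a difference of -0.86 without animal 28 and of -0.72 where intensities under 16 were raised to 16. The platelet list, which shares THBS1, had no other change among 4 tested genes: ITGA2B, ITGB3 and SELP, which define platelets, did not pass, and the list mean was 9.47 to 10.46 at T2 and 9.20 to 10.70 at T1.

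Eicosanoid and annexin genes gave 6 rises and 2 falls among 13 tested, and 2 and 1 without animals 28 and 32. With all animals 61.5% changed, against 43.3% of all genes. LTA4H, which makes leukotriene B4, rose by 0.64 (SE 0.089, adjusted p 5.78e-04), with T2 values of 10.44 to 10.89 above T1 values of 9.64 to 10.38. PTGS1, the constitutive cyclooxygenase, rose by 0.43 (SE 0.101, adjusted p 0.0081). PTGER4, a receptor of prostaglandin E2, fell by 1.28 (SE 0.15, adjusted p 2.19e-04) in 8 of 8 animals. PTGS2, the inducible cyclooxygenase, ranged from 5.87 to 8.85 at T2 against 6.31 to 12.70 at T1. The times overlapped, 2 animals were higher at T2, and its difference of -1.93 (SE 0.696, adjusted p 0.0474) did not pass without any 1 of animals 27 to 32 (adjusted p up to 0.0919, without animal 27) and was -1.26 without animal 28.

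T cell markers were slightly higher at T2, with 4 rises and 0 falls among 8 tested and a median of 0.28. The 50% that changed was near the 43.3% of all genes, although all were rises, where 25.7% of all genes rose. CD6, an adhesion receptor of T cells, rose by 0.81 (SE 0.206, adjusted p 0.0109) and CD8A, the co-receptor of cytotoxic T cells, by 0.45 (SE 0.134, adjusted p 0.0218). CD2, an adhesion molecule, was higher by 0.36 (adjusted p 0.0381) and CD3G, a T cell receptor chain, by 0.34 (adjusted p 0.0363). In controls CD2 differed by 0.40 (adjusted p 0.0919), and it did not pass the interaction (-0.04, adjusted p 0.8864). CD3D (0.15), CD3E (0.09), CD247 (0.21) and CD28 (-0.16) did not pass. The calls of CD2, CD3G and CD8A each ended without 1 animal (adjusted p up to 0.0931 and 0.0561 without animal 27 for CD2 and CD8A, and 0.0871 without animal 31 for CD3G). Without animals 28 and 32, and also with the values as deposited, the list gave 2 rises.

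Genes that mark T cell activation were lower more often than higher, with 2 rises and 5 falls among 11 tested and a median of -0.40. Without animals 28 and 32 the counts were 1 and 5. The share that changed was 63.6%, against 43.3% of all genes. ICOS, a co-stimulatory receptor, lay between 8.48 and 9 at T2 with a median of 8.76, against 8.88 to 10.73 at T1 with a median of 9.68. Every animal was lower at T2, and ICOS fell by 1.04 (SE 0.139, adjusted p 4.31e-04). CD44, a hyaluronan receptor of activated cells, fell by 0.61 (SE 0.075, adjusted p 2.49e-04) and CTLA4, an inhibitory receptor, by 0.67 (adjusted p 0.0041). CD40LG, the helper ligand for B cells, rose by 0.80 (SE 0.149, adjusted p 0.0024) in 8 of 8 animals. IL2RA (-0.40) and CD69 (0.08) did not pass.

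Among 12 homing and egress receptors tested, 5 rose, 4 of them integrin subunits, and 4 fell, all of them chemokine or lipid receptors. Without animals 28 and 32 the counts were 3 and 4. The share that changed was 75%, against 43.3% of all genes. CCR7, which guides T cells into lymph nodes, ranged from 11.67 to 12.93 at T2 with a median of 12.18, against 12.34 to 14.08 at T1 with a median of 13.68. Every animal was lower at T2 and only the lowest T1 value reached the T2 range, and CCR7 fell by 1.30 (SE 0.144, adjusted p 2.01e-04). CXCR5, which guides cells into B cell follicles, fell by 0.96 (SE 0.182, adjusted p 0.0027) and S1PR1, needed to leave lymph nodes, by 0.54 (adjusted p 0.0492). ITGA4, an integrin subunit that binds VCAM1, rose by 0.83 (SE 0.111, adjusted p 4.30e-04) in 8 of 8 animals. ITGAL and ITGB2, which together form LFA-1, rose by 0.36 and 0.30, and ITGB1, the partner of ITGA4, by 0.34. The remaining rise was in a chemokine receptor, CCR8, at 0.45. The calls of S1PR1, ITGAL and CCR8 each ended without 1 of several animals (adjusted p up to 0.1105, 0.0696 and 0.0651, without animals 29, 28 and 27), and CCR1, CXCR3 and CXCR6 did not pass.

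In the erythroid, neutrophil, B cell and natural killer lists a smaller share of genes changed than the 43.3% of all genes. Of 9 erythroid genes 3 rose (33.3%) and 0 fell, with a median of 0.62 (4 and 0 without animals 28 and 32). Beside NFE2 these were CA2, a red cell carbonic anhydrase, by 0.92 (SE 0.195, adjusted p 0.0044), and HBB, beta globin, by 0.82 (SE 0.228, adjusted p 0.0164). Neither passed without pairing (adjusted p 0.0904 and 0.1100). In controls CA2 and HBB differed by 0.59 and 0.35 (adjusted p 0.1914 and 0.2090), and neither passed the interaction (adjusted p 0.4169 and 0.2390). The mean of the 7 erythroid genes with all values, NFE2 left out by a choice made after the data were seen, was 10.04 to 11.11 at T2 and 9.62 to 10.96 at T1, higher at T2 in 7 of 8 treated animals and lower by -0.22 in animal 32. Its mean difference was 0.37 in treated animals and 0.15 in controls, where 5 of 7 animals were higher at T2, and the part of erythroid RNA in the rise of NFE2 was not tested.

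Of 10 neutrophil genes CATHL5, a cathelicidin, was the only one to pass, higher by 0.67 (SE 0.108, adjusted p 0.0016), and LTF, BPI, CXCR1 and S100A12 did not. Among 4 B cell genes CR2, a complement receptor, rose by 0.78 (SE 0.098, adjusted p 2.88e-04), while CD79A did not pass (-0.07). Natural killer and cytotoxic genes gave 3 rises and 0 falls among 10 (1 and 0 without animals 28 and 32): NCR1 (0.76), KIR3DS1 (0.71) and KLRK1 (0.58), all activating receptors. Their calls ended without 1 of several animals (adjusted p up to 0.0573, 0.0747 and 0.0783, without animals 27, 30 and 30) and without pairing (0.0608, 0.1948 and 0.0699), and the granule genes PRF1, GZMB and NKG7 did not pass. In the gamma-delta T cell list, with 2 tested, ID3, a transcriptional inhibitor, rose by 0.76 (adjusted p 0.0178, and 0.0941 without animals 28 and 32).

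Interferon response genes gave 3 rises and 1 fall among 10 (2 and 1 without animals 28 and 32), and the 40% that changed was close to the 43.3% of all genes. USP18, which shuts down the interferon receptor, fell by 1.38 (SE 0.177, adjusted p 3.26e-04) in 8 of 8 animals. EIF2AK2, the RNA-dependent kinase PKR, rose by 0.58 (SE 0.143, adjusted p 0.0094), MX1, an antiviral GTPase, by 0.81 (adjusted p 0.0236), and IRF1, a transcription factor, by 0.64 (adjusted p 0.0259). MX1 and IRF1 missed without 1 animal (adjusted p up to 0.0543 without animal 30 and 0.0632 without animal 25). ISG15, MX2 and OAS2 did not pass, so the list did not move one way. Animal 26 stood apart, with a difference of 1.42 in the mean of the 10 genes, against -0.78 to 0.44 in the others. Its MX1 difference was 2.42, against -0.21 to 1.14 in the others.

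Of the genes that present antigen, 2 of 10 in MHC class I (20%) and 4 of 8 in class II (50%) changed, against 43.3% of all genes. In class I, PSMB10, an immunoproteasome subunit, rose by 0.42 (adjusted p 0.0200) and JSP.1, a class I chain, was lower by -0.37 (adjusted p 0.0136). Neither passed without animals 28 and 32 (adjusted p 0.0808 and 0.0801), so that the class I list then gave 0 rises and 0 falls, and JSP.1 did not pass without pairing (adjusted p 0.6666). Class II genes gave 3 rises and 1 fall among 8, and 0 rises and 1 fall both with the values as deposited and without animals 28 and 32. The fall was in BOLA-DYB, a class II chain of ruminants, by -0.40 (SE 0.085, adjusted p 0.0045). BOLA-DRA and BOLA-DRB3 did not pass.

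Heat shock chaperones gave 2 rises and 3 falls among 14 (1 and 2 without animals 28 and 32). The 35.7% that changed was under the 43.3% of all genes. Animal 30 stood apart across this list, with a difference of -1.34 in the mean of the 14 genes, against -0.11 to 0.27 in the others, and the highest T1 mean of 12.67, where the median was 11.22. Without animal 30 the list gave 4 rises and 3 falls. DNAJB6, a co-chaperone, lay between 12.37 and 12.94 at T2 with a median of 12.54, against 13.23 to 13.80 at T1 with a median of 13.64. The times were fully separated, and it fell by 0.98 (SE 0.095, adjusted p 1.12e-04). HSPA9, the mitochondrial HSP70, fell by 0.60 (SE 0.075), and HSPA2, another HSP70, rose by 0.72 (SE 0.112). XBP1, a transcription factor of the unfolded protein response, fell by 0.52 (SE 0.088, adjusted p 0.0015) without overlap. That response gave 0 rises and 2 falls among 8 tested, or 25% changed (0 and 1 without animals 28 and 32), under the 43.3% of all genes. HSPA5 and HSP90B1, its chief chaperones, did not pass.

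Fatty acid oxidation genes gave 5 rises and 0 falls among 8, with a median of 0.33 (4 and 0 without animals 28 and 32). The share that changed was 62.5%, against 43.3% of all genes. CPT1B, which admits fatty acids to mitochondria, lay between 8.47 and 9.08 at T2 with a median of 8.85, against 7.32 to 8.49 at T1 with a median of 7.79. It rose by 0.91 (SE 0.089, adjusted p 1.12e-04) in 8 of 8 animals, the ranges meeting at their ends. ACADS, a short-chain dehydrogenase, rose by 0.57 (SE 0.087), HADHB, of the trifunctional protein, by 0.38 (SE 0.092) and ACAA2, a thiolase, by 0.36 (SE 0.084). The list mean was higher at T2 in all 8 animals, 10.85 to 11 at T2 and 10.47 to 10.77 at T1, without overlap.

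Of 11 glycolysis genes 2 rose and 4 fell, and 2 and 1 did so without animals 28 and 32. With all animals 54.5% changed, against 43.3% of all genes. SLC2A3, a glucose transporter, fell by 0.85 (SE 0.161, adjusted p 0.0026) and ENO1, enolase, by 0.41 (adjusted p 0.0083, and 0.0505 without animals 28 and 32). HK1, hexokinase, rose by 0.39 (SE 0.096) and GPI, the next enzyme, by 0.33 (SE 0.067), each in 8 of 8 animals. Among 6 cholesterol synthesis genes 16.7% changed, against 43.3% of all genes, and FDFT1, squalene synthase, rose by 0.39 (adjusted p 0.0131). Without animals 28 and 32 its difference was 0.40, with an adjusted p of 0.0535.

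Of 71 oxidative phosphorylation subunits 15 rose and 6 fell, with a median of 0.00, and 29.6% changed, under the 43.3% of all genes. This split depended on the scaling, since 10 rose and 11 fell with the values as deposited, and 6 rose and 4 fell without animals 28 and 32. The lean to rises was not seen against controls, whose median was 0.05. The interaction passed for 1 subunit in the positive direction and 7 in the negative one (11.3%, against 26.2% of all genes). NDUFS1, the largest subunit of complex I, lay between 7.95 and 8.32 at T2 against 7.08 to 7.73 at T1 and rose by 0.75 (SE 0.103, adjusted p 5.16e-04). NDUFA9 and NDUFA5, also of complex I, fell by 0.34 (SE 0.065) and 0.43 (SE 0.082), so subunits of 1 complex moved both ways. ATP5IF1, an inhibitor of ATP synthase, rose by 0.61 (SE 0.093). By complex, 8 of 36 rose and 3 fell in complex I, 0 of 10 rose and 2 fell in complex IV, and 5 of 15 rose and 0 fell in complex V. ATP5IF1 is counted in complex V. Over all genes 25.7% rose and 17.7% fell, and no complex was tested against these shares.

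Few cytosolic ribosomal proteins changed, with 2 rises and 2 falls among 42 (9.52% changed, against 43.3% of all genes, and 0 rises and 2 falls without animals 28 and 32). Their mean spanned 16.59 to 16.71 at T2 and 16.54 to 16.75 at T1. Mitochondrial ribosomal proteins, which build the separate ribosome of that organelle, gave 7 rises and 8 falls among 20, or 75% changed. MRPL13 rose by 0.73 (SE 0.077, adjusted p 1.63e-04) and MRPS17 by 0.59 (SE 0.071), while MRPS18B fell by 0.55 (SE 0.085) and MRPS14 by 0.30 (SE 0.055). In MRPL13, MRPS18B and MRPS14 the times did not overlap, and without animals 28 and 32 the list gave 5 rises and 6 falls.

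Translation factors gave 4 rises and 5 falls among 24 (4 and 4 without animals 28 and 32). The 37.5% that changed was under the 43.3% of all genes. The list also counts 2 kinase genes, EIF2AK1 among the falls and EIF2AK2 among the rises. Paralogous RNA helicases of the cap-binding complex went opposite ways, EIF4A2 rising by 0.52 (SE 0.103, adjusted p 0.0034) and EIF4A1 falling by 0.84 (SE 0.12, adjusted p 5.89e-04), both without overlap of times. EIF4E, which binds the mRNA cap, ranged from 9.15 to 9.58 at T2 with a median of 9.27, against 9.78 to 10.18 at T1 with a median of 10.06. It was lower in every animal, with no overlap, and fell by 0.72 (SE 0.064, adjusted p 1.12e-04).

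Proteasome subunits gave 3 rises and 6 falls among 21, and 1 and 2 without animals 28 and 32. The 42.9% that changed was close to the 43.3% of all genes. PSMA2, a core subunit, lay between 9.95 and 10.05 at T2 against 10.27 to 10.84 at T1 and fell by 0.60 (SE 0.070, adjusted p 2.19e-04). PSMC2, an ATPase of the cap, fell by 0.54 (SE 0.064, adjusted p 2.25e-04), also without overlap, and PSMD7, a lid subunit, rose by 0.48 (SE 0.126).

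Cell cycle genes gave 4 rises and 1 fall among 15 (2 and 0 without animals 28 and 32). The 33.3% that changed was under the 43.3% of all genes. BIRC5, survivin, rose by 1.01 (SE 0.245, adjusted p 0.0090) in treated animals, and it was also among the 5 genes that passed in controls (0.82, adjusted p 0.0262). CDK4, a G1 kinase, rose by 0.45 (SE 0.084, adjusted p 0.0025), CCNB2, a mitotic cyclin, by 0.42 (SE 0.112, adjusted p 0.0141), and AURKB, CDK1 and PLK1 did not pass. CCNB2 differed by 0.43 in controls (adjusted p 0.2350) and did not pass the interaction (-0.01, adjusted p 0.9700). Of 9 apoptosis genes 3 rose and 2 fell, or 55.6% changed, against 43.3% of all genes (4 and 2 without animals 28 and 32). The executioner caspase CASP6 rose by 0.57 (SE 0.095) and BAX, which opens mitochondria, by 0.51 (SE 0.129). BCL2A1, a survival protein, fell by 1.16 (SE 0.247, adjusted p 0.0047) with no overlap between 10.51 to 10.97 at T2 and 11.06 to 13.66 at T1, and CFLAR, an inhibitor of caspase 8, by 0.52 (SE 0.143).

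Complement genes gave 1 rise and 3 falls among 10 (0 and 2 without animals 28 and 32). The 40% that changed was close to the 43.3% of all genes. SERPING1, which inhibits C1, changed by -0.54 (SE 0.103, adjusted p 0.0027, and 0.1064 without pairing), and CD46, which protects cells from complement, by -0.33 (SE 0.072, adjusted p 0.0050). CD46 differed by -0.65 in controls, lower in 7 of 7 animals (adjusted p 0.0878), and did not pass the interaction (0.31, adjusted p 0.1135). C1QA, a recognition chain, rose by 0.58 (adjusted p 0.0402, up to 0.0964 without animal 27). Of 9 genes often used as references, ACTB was higher by 0.39 (adjusted p 0.0042) and PPIA by 0.17 (adjusted p 0.0325). The 22.2% that changed was under the 43.3% of all genes. This list had 1 rise and 1 fall with the values as deposited and 1 rise and 0 falls without animals 28 and 32.

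**Figure D4:**
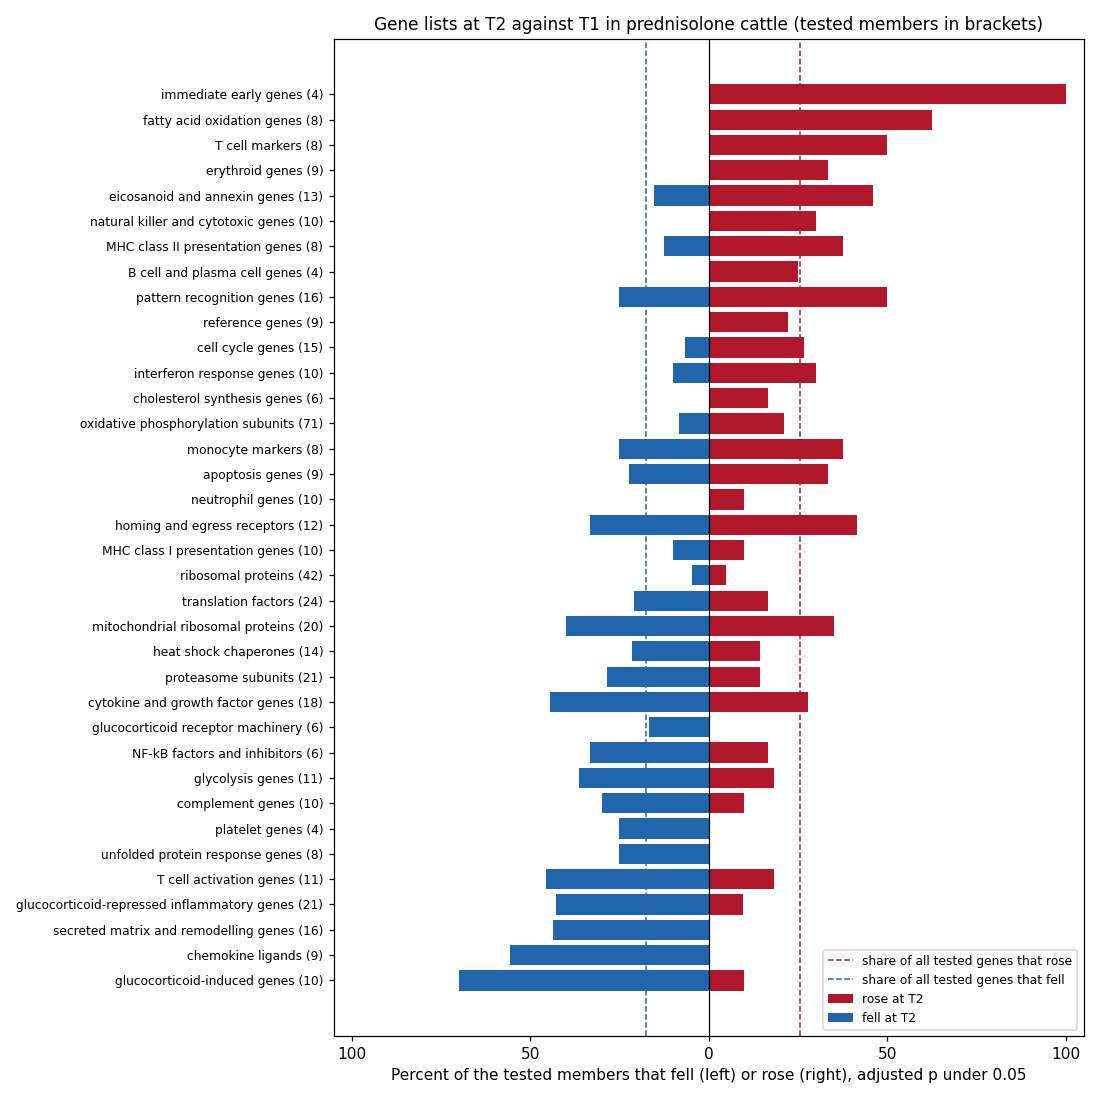
Percent of each list's tested members (numbers in brackets) that rose, to the right in red, or fell, to the left in blue, at T2 against T1 in prednisolone cattle, ordered by the balance of both. Dashed lines mark the shares over all genes, 25.7% and 17.7%. Immediate early genes (4 of 4 rose) lie at the top and glucocorticoid-induced genes (7 of 10 fell) at the bottom.

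Whether the change differed from that of control animals was tested as the interaction of treatment and time over all 30 arrays. It passed for 620 of 2370 genes (26.2%), 333 with a more positive change in treated animals (14.1%) and 287 with a more negative one (12.1%). Without animals 28 and 32 the count was 388, of which 377 were among the 620. The treated arrays enter both this test and the one within treated cattle, so each gene's own values are given side by side.

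TLR5 differed in treated animals by 1.87 and in controls by -0.76, an interaction of 2.63 (SE 0.307, adjusted p 1.56e-04). For IL15 these values were 1.99 in treated animals and -0.19 in controls, an interaction of 2.17 (SE 0.217, adjusted p 5.83e-05). NFE2 gave 2.32 in treated animals and 0.15 in controls, with an interaction of 2.17 (SE 0.345). EGR1, HRH1 and HSPB8 exceeded the controls by 1.85, 1.89 and 1.82, and GRO1 by 1.82, the last with differences of 0.47 in treated animals and -1.35 in controls.

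In the negative direction, the interaction was -3.76 for CXCL5 (SE 0.687), -2.78 for THBS1 (SE 0.344), -2.55 for CD14 (SE 0.436), -2.01 for MT2A (SE 0.621, adjusted p 0.0264) and -1.95 for PLAUR (SE 0.320). SPP1 and CCL2, with values missing at T2, gave -7.82 (SE 1.018) and -6.98 (SE 1.451). Of the 1027 genes that passed in treated cattle, 540 also passed the interaction and 487 did not, and of the 133 named genes among them 55 did not. Beside TNF these 55 included BIRC5 (0.19, adjusted p 0.6599), CD2 (-0.04, adjusted p 0.8864), CCL3 (-0.94, adjusted p 0.1833) PTGS2 (-2.20, adjusted p 0.0826), CCL8 (adjusted p 0.2467), SERPINB2 (adjusted p 0.0758), DNAJB1 (adjusted p 0.7574), CFLAR (adjusted p 0.6416) and BTG1 (adjusted p 0.1540).

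By list, the interaction passed for 3 of 4 immediate early genes, 1 of 8 T cell markers, 1 of 8 fatty acid oxidation genes and 1 of 9 erythroid genes in the positive direction, and for 8 of 16 matrix genes, 4 of 10 glucocorticoid-induced genes and 2 of 21 repressed inflammatory genes in the negative one. Against 14.1% and 12.1% over all genes, the T cell, fatty acid oxidation, erythroid and repressed inflammatory shares were near or under the background. The controls' own 5 genes were ADAP1 (0.74), BIRC5 (0.82), IFITM1 (1.02), NRM (0.52) and OSM (0.83), and of these BIRC5, NRM (0.33) and OSM (0.86) also passed in treated animals.

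**Figure D5:**
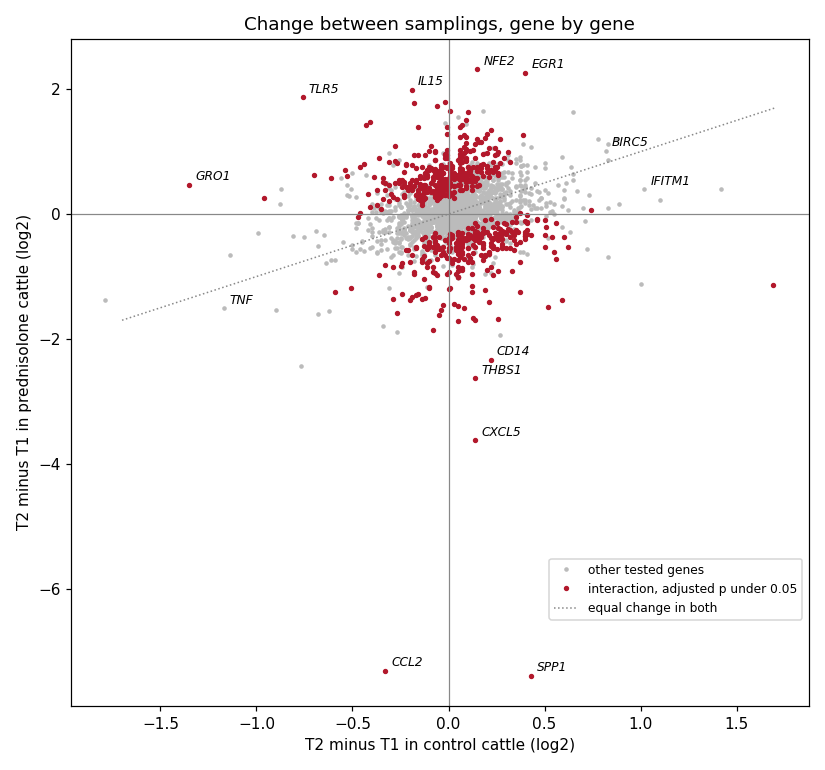
T2 minus T1 difference in prednisolone cattle (vertical axis, log2) against that in control cattle (horizontal axis, log2) for each of 2370 tested genes, with genes that passed the interaction in red and a dotted line where both changes are equal. The axes differ in scale. Treated differences reach -7.39 for SPP1 and 2.32 for NFE2, whereas GRO1 is at -1.35 and IFITM1 at 1.02 in controls.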

How the data were processed

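Per the series text, the authors scanned each single-colour array at 2 sensitivities and used Feature Extraction 9.5 to join the scans, detrend the signal and subtract background, and the values deposited are linear intensities from 1.62 to 1067622. The submitters' processing notes name R 2.11.1, and how arrays were normalized to each other, or why 17.16% of cells are empty, is not stated in the sources used here. Of 44407 features, 6954 had 1 gene symbol in the platform annotation, 0 several and 37453 none, and symbols were updated through RefSeq accessions (5432), kept as current (1358), updated as synonyms (162) or left as the platform gave them (2), giving 3269 genes.

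Arrays were brought to a common 75th percentile over the 23055 features measured on every array (a shift of at most 0.044 log2), raised to a floor of 2.51 (percentile 1) and logged. Features within 0.25 log2 of a gene's brightest were averaged, the lowest 25% of genes by level were left out, and genes needed both times in 4 animals of each treatment. This left 2370 genes, 195 with LOC symbols, and 146 with a missing value on some treated array, for which the fit used the animals with both times.

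Differences were fitted with limma 3.58.1 (lmFit, eBayes) in R 4.3.3, two-sided, with animal as a block. The animal numbers in the titles give the pairing: across genes, what set an animal apart from its group at T2 correlated with what set it apart at T1 at 0.221 to 0.696 in treated and 0.386 to 0.58 in control animals, and each animal's T2 array correlated best with its own number except in animal 26. The step was tested on simulated data. Where no label says that samples came from separate preparations, p-values measure the spread between these animals' samples. No label gives a hybridisation batch, so none was modelled. The members and gene lists were chosen with earlier results of these data known, and some list patterns were trimmed after values were seen.

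Genes were named by rule: the 12 largest passing rises and falls with all values, no LOC symbol and a brighter level above the lower quartile, up to 4 passing members per list by smallest p, a set of glucocorticoid and inflammatory genes, the controls' passing genes, and the 5 largest interactions in each direction. Other list members, and genes stated as such, were named after their values were seen. Alternatives covered the block, scaling, floor, spot averaging, filters, array weights, intensity trend and leaving out animals. Python 3.11.15, numpy 2.4.6, pandas 2.3.3 and matplotlib 3.10.9 prepared tables and plots. No sequence or coordinate was used.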

Additional observations from a re-analysis of the deposited data

Results flagged for a closer look

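In 4 of 36 genes tested for it, 1 treated animal's T2 minus T1 difference lay far from those of the other 7 (Dixon's criterion, which chance meets in about 1 of 20 groups). FOS differed by 0.79 in animal 32 and by 1.52 to 2.01 in the others. HSPB8 gave -1.83 in animal 30, against 1.92 to 3.52 in the rest. PTGS2 stood at -6.63 in animal 28, where the other animals spanned -2.60 to 0.85, and TNFAIP6 at -5.04 in the same animal, where they spanned -2.24 to 0.20.

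The change between samplings differed between treated and control animals, by the interaction of treatment and time, for 620 genes. Among fully measured genes above the lower quartile of level and with a symbol other than a LOC number, the largest such differences were 2.17 for NFE2, 1.89 for HRH1, 1.85 for EGR1, 1.82 for GRO1 and 1.82 for HSPB8 in the positive direction. In the negative direction they were -3.76 for CXCL5, -2.78 for THBS1, -2.55 for CD14, -2.01 for MT2A and -1.95 for PLAUR.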

How the results depend on the processing

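The count of 1027 genes in treated cattle lay between 716, without animals 28 and 32, and 1136, with array weights, over all alternatives run, and between 852 and 1052 when each animal was left out. Without the replicate block it was 905, of which 861 were shared with the paired fit. The interaction count of 620 was 435 without the block (427 shared), 514 to 681 with each treated animal left out, and 388 without animals 28 and 32, with fewer animals as part of that setting. The control count of 5 was small and unstable: 0 without the block (239 at an unadjusted p under 0.05 in limma) and 0 with no filter on level (423 unadjusted), 3 with quantile normalization, with the floor of 16, with the brightest feature, with the stricter filter and with an intensity trend, 14 with array weights, 21 with animal as a random block, and 0 to 7 with each control animal left out (0 without animal 18, 20, 21, 23 or 24). The cause of these shifts was not tested.

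Of 133 named genes that passed in treated cattle, 87 kept the call in every alternative run and 46 lost it in at least 1, none with a turned sign. The share of rises among calls was 59.2%, against 52.0% without scaling and 54.7% with quantile normalization, and the median over all genes was 0.040, -0.004 and 0.022 in that order. Intensities near the floor, as for SPP1 at T2, limit the size of a fold.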

Other observations

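Some genes outside the lists, chosen after their values were seen, also changed in treated cattle in every animal with both times. GADD45A, a gene of growth arrest and DNA damage, averaged 11.66 ± 0.41 at T2 and 10.52 ± 0.22 at T1 (SD, n = 8), a rise of 1.14 (SE 0.100, adjusted p 1.12e-04), and in controls it differed by 0.09. BTK, the kinase of B cell receptor signalling that myeloid cells also carry, averaged 12.64 ± 0.28 at T2 and 11.70 ± 0.54 at T1, a rise of 0.94 (adjusted p 0.0018). XDH, xanthine dehydrogenase, averaged 15.18 ± 0.38 at T2 and 14.27 ± 0.32 at T1, a rise of 0.91 (adjusted p 0.0031).

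On the lower side, PLIN2, which coats lipid droplets, averaged 9.02 ± 0.50 at T2 and 10.34 ± 0.33 at T1 and fell by 1.32 (adjusted p 5.89e-04). PPARG, a nuclear receptor of lipid metabolism, averaged 8.59 ± 0.43 at T2 and 10.06 ± 0.90 at T1 and fell by 1.47 (adjusted p 7.82e-04). HMOX1, the haem-degrading enzyme, averaged 12.81 ± 0.47 at T2 and 14 ± 0.47 at T1 and fell by 1.20 (adjusted p 5.75e-04). For PLIN2, PPARG and HMOX1 the control differences were -0.19, 0.05 and 0.00, and the interactions were -1.13, -1.53 and -1.20 (adjusted p 0.0081, 0.0036 and 0.0043).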
